A study of Caenorhabditis elegans with 2 samples.

Results

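The 10 genes described here encode the integrin attachments of worm muscle, and they are unc-112, pat-2, pat-3, pat-4, pat-6, unc-97, unc-95, unc-98, deb-1 and tln-1. They were taken by gene name, 10 of 19973 protein-coding genes in the Ensembl annotation of build WBcel235, and each was read from 1000 bp upstream to 1000 bp downstream. The data are peak lists from chromatin immunoprecipitation sequencing (ChIP-seq) of ZFH-2, a Caenorhabditis elegans transcription factor with zinc fingers and homeodomains. Both biological replicates, which form 1 group, came from whole young adults of strain RW12167, aged 64.5 hours from a starved L1 larval start. The strain carries st12167, in which CRISPR placed GFP and an unc-119(+) marker flanked by loxP sites at zfh-2, together with the unc-119(tm4063) mutation on chromosome III, and the precipitating antibody recognises GFP. Both replicates share every one of these alleles, no untagged or input library was analysed here, and whether a peak would appear without the tag was not tested. Whole worms were used, so a peak does not say in which tissue ZFH-2 was bound.

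In the body wall muscle of the worm, force passes from the sarcomere to the basement membrane through dense bodies and M-lines. An integrin of the alpha subunit PAT-2 and the beta subunit PAT-3 spans the membrane at both. Inside the cell UNC-112 (kindlin), PAT-4 (integrin-linked kinase), PAT-6 (parvin) and UNC-97 (PINCH) gather at the integrin tail, the LIM-domain protein UNC-95 and the zinc finger protein UNC-98 join them, and DEB-1 (vinculin) and TLN-1 (talin) connect to actin. Loss of several of these proteins stops the embryo from elongating because its muscle cannot contract.

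ZFH-2 summits were found at members of every one of these roles, but at 6 of the 10 genes and at very unequal strength. The conservative list of the authors, which draws on both replicates and is thresholded on the irreproducible discovery rate (IDR; low where a peak ranks alike in repeated calls), holds 7085 nuclear summits, and 15 of them lay in the windows of unc-112, pat-3, pat-4, unc-95, unc-98 and tln-1. For pat-2, pat-6, unc-97 and deb-1 the count was 0. Among the integrin subunit genes only pat-3 had a summit, and neither replicate's own thresholded list contains its peak. Of all protein-coding genes, 22.9% had a summit in such a window, and the member windows were longer, with a median of 7.01 kb against 4.03 kb. Per kb of window the members held 0.186 summits, and 0.117 without tln-1, against 0.0766 over all protein-coding genes. The promoter window began 1000 bp before a gene's 5' end and stopped 200 bp past it, and 5 of the 10 members and 8.82% of all protein-coding genes had a summit there. These are descriptions of a chosen list, with no test.

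Summit strength spanned much of the list. The strongest summit of each gene had a signal of 367 at unc-112 (rank 196 of 7085), 228 at unc-95 (rank 838), 160.4 at tln-1 (rank 2004), 117 at unc-98 (rank 3636), 109 at pat-3 (rank 4094) and 85.9 at pat-4 (rank 5763). The median over the 6 genes was 139, and over all protein-coding genes with a summit it was 141. The medians were close. The strongest summits of the members ranged from the strongest 2.77% of the list at unc-112 and 11.8% at unc-95 to 81.3% at pat-4. The replicates' own thresholded lists are shorter, with 4281 nuclear peaks in replicate 1 and 4696 in replicate 2, so their percents have another total. There the unc-112 position was 3.64% in replicate 1 and 6.62% in replicate 2, and that of unc-95 was 35.4% in replicate 1 and 9.58% in replicate 2. In the longer ranked lists the same peaks were at 0.475% and 0.972% for unc-112 and at 4.60% and 1.40% for unc-95. Both positions thus depended on the replicate and on the list. Signal has no stated scale and is used only to order peaks within a list.

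Gene length bears on these counts. Among the 500 protein-coding genes nearest to each member in window length, the share with a summit was 29.2% for unc-112, 33.4% for pat-3, 34.6% for pat-4, 25.8% for unc-95 and 22.0% for unc-98. For the 4 members without a summit it was 36.2% (pat-2), 16.6% (pat-6), 15.8% (unc-97) and 47.4% (deb-1). The density of summits was highest at tln-1 (0.379 per kb), unc-95 (0.372) and unc-112 (0.294), and it was 0.136 to 0.191 at pat-4, pat-3 and unc-98.

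**Figure D1:**
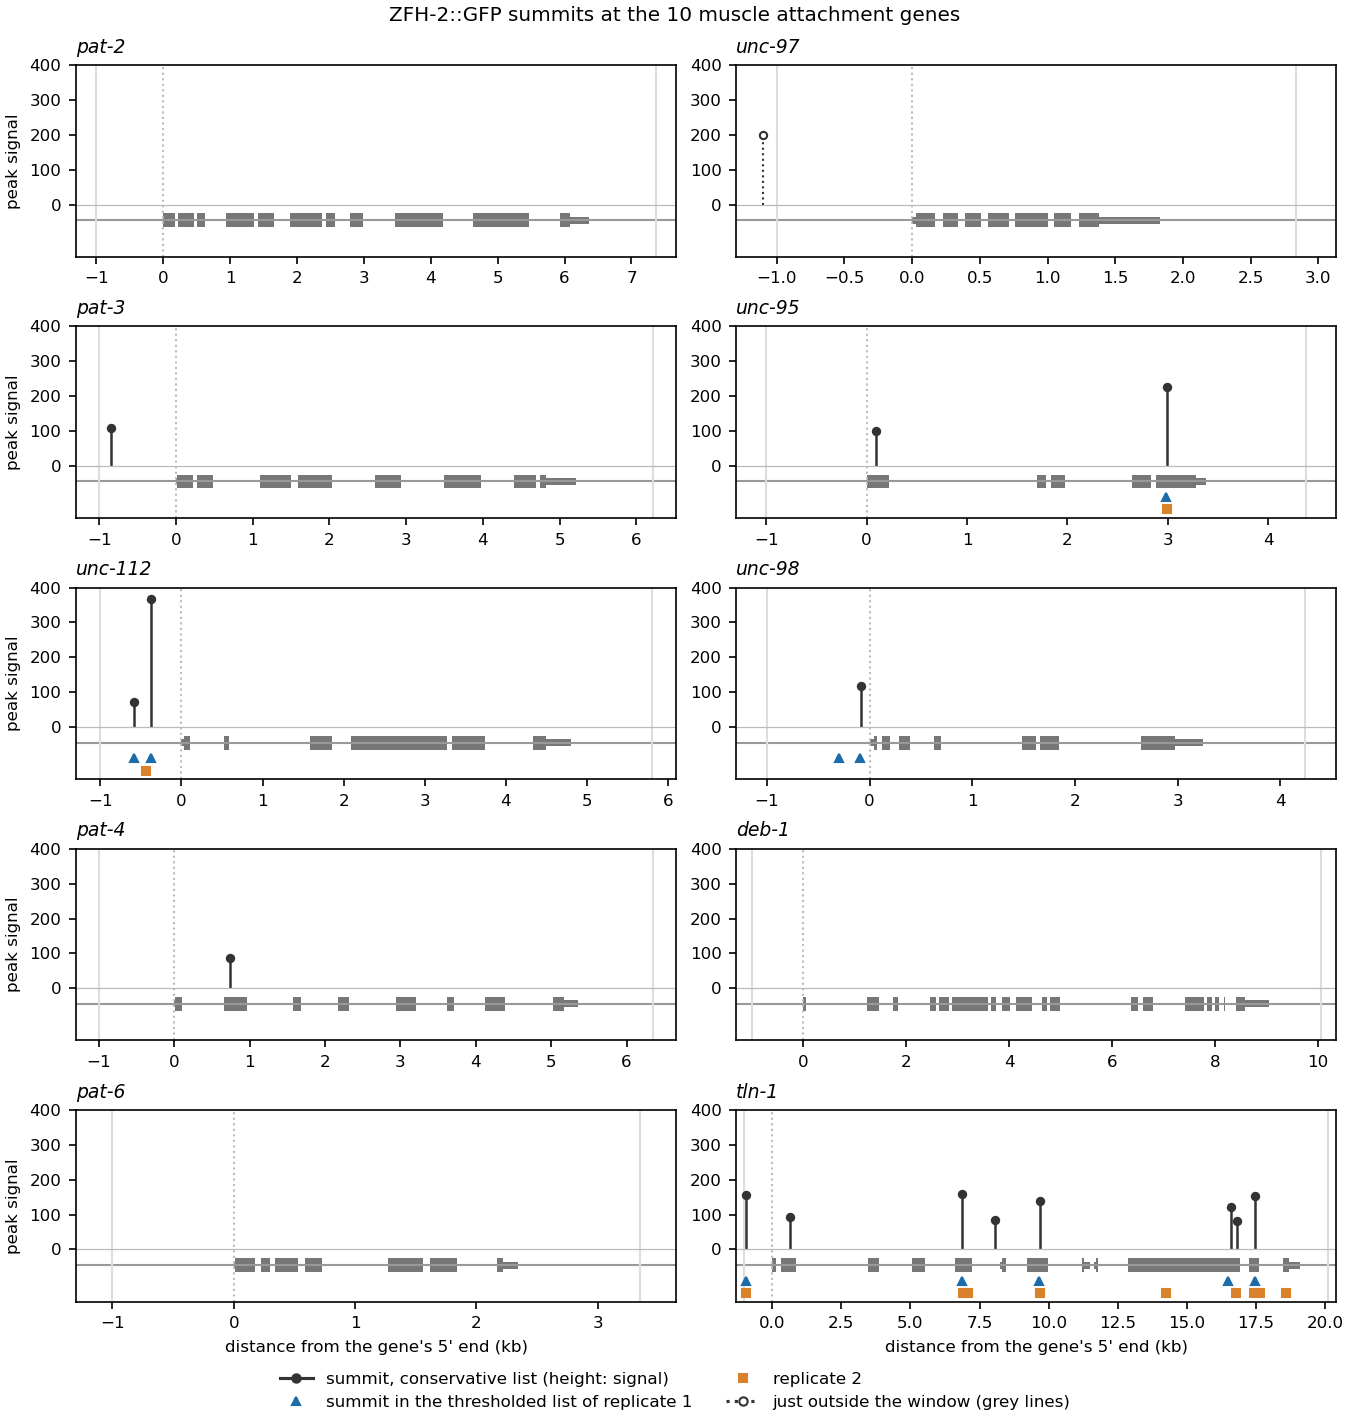
Summits along each of the 10 genes, with distance from the 5' end in kb on the horizontal axis and the authors' peak signal on the vertical axis. Grey boxes are exons (tall where coding), filled circles are summits of the conservative list, triangles and squares are summits in the thresholded lists of replicate 1 and replicate 2, and the open circle at unc-97 is a summit 102 bp outside the window, for which the replicates' own summits are not drawn. The tallest summit, of signal 367, stands upstream of unc-112, and tln-1 carries 8 summits spread over the gene.

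The integrin subunit genes differed. At pat-3, on chromosome III from 3908931 to 3914149 (minus strand), 1 summit lay 850 bp upstream of the 5' end in intergenic sequence, at position 3914999 of build ce11, with signal 109. The overlapping peak in replicate 1's ranked list, which holds peaks before the threshold, had signal 60.4 (among the strongest 13.6%, IDR 0.0114). In replicate 2 it had signal 49.4 (strongest 13.9%, IDR 0.013). Both replicates thus held the peak at nearly the same rank, and in each it narrowly missed an IDR of 0.01, so neither thresholded list contains it. At pat-2 (III, 8818899 to 8825266, plus strand) replicate 1 had no ranked peak, and the strongest of the 3 in replicate 2 had an IDR of 0.428.

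The pat-3 summit is shown on the strand of the gene because it is the only one at an integrin subunit gene; none of the 7 motifs searched below lies in it. It is the stretch within 50 bp of the summit, at ce11 chrIII:3914949-3915049, minus strand.
pat-3: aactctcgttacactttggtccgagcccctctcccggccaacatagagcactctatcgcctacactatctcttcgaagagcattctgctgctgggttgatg

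Of the genes for the complex at the integrin tail, unc-112 had the strongest summit of all members. Kindlins activate integrins, and unc-112 lies on chromosome V from 14691855 to 14696654 (minus strand). Its main summit stood at 14697034, 380 bp upstream of the 5' end, with signal 367, and lay in the promoter window of no other gene. In replicate 1 the summit lay at the same base, with signal 228 (rank 157 of 33033 ranked peaks, the strongest 0.475%). In replicate 2 it lay 58 bp further upstream, with signal 147 (rank 312 of 32103, the strongest 0.972%). Both replicates thus place this peak among their strongest 1%. Among protein-coding genes, 175 had a stronger summit in their window. A further summit of signal 71.9 stood at 14697237, 583 bp upstream, in the same peak interval and 203 bp from the first; replicate 1's thresholded list had it too, and replicate 2's list had a single summit for the whole interval.

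The sequence under both unc-112 summits is shown because it holds the strongest summit of the 10 genes. It is 300 bases of ce11 chrV:14696986-14697285, minus strand, with the weaker summit at base 49 and the stronger at base 252 counted from the 5' end. Capitals mark GAGAGAGA repeats, read on this strand as TCTCTCTC and starting at bases 23, 25, 27 and 250, and 2 copies of CATTCC.
unc-112: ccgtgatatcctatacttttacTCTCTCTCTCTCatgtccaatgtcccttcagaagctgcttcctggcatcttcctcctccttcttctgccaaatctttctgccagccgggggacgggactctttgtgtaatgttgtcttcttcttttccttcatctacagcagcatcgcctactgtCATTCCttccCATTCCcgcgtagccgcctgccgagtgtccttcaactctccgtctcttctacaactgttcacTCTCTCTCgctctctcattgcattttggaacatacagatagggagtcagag

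The stronger summit thus sat within a GA repeat, and its GC content of 49.5% was moderate. Over the 708 strongest summits, about 10% of the list, the mean was 59.3%, and 6.50% of them had a lower GC content than the unc-112 summit. GAGAGAGA was found within 50 bp of 2 of the 15 member summits, the pair at unc-112 that share 1 interval, and of 4.02% of all summits. In the promoter windows it occurred at unc-112, pat-3 and pat-6, against 8.70% of all promoter windows.

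At pat-4 the summit was weak and lay inside the gene. This gene for integrin-linked kinase occupies III 89453 to 94809 (minus strand), and its summit at 94072 was in coding exon 2 of 8 in transcript C29F9.7.1, 737 bp downstream of the 5' end, with signal 85.9. The overlapping ranked peaks had signal 53.4 in replicate 1 (strongest 16.9%, IDR 0.0147) and 33.0 in replicate 2 (strongest 24.7%, IDR 0.0411). Neither passed in its own thresholded list. A ranked peak in the promoter was also present in both replicates, 343 bp upstream in replicate 1 (signal 58.6, IDR 0.0127) and 353 bp upstream in replicate 2 (signal 25.3, IDR 0.417), and it is not in the conservative list. In replicate 1 this promoter peak was slightly stronger than the one in exon 2.

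The pat-4 summit is shown as an island of high GC content. The stretch within 50 bp of the summit had 63.4% GC, and the stretches centred 300 bp upstream and downstream had 20.8% and 25.7%. It lies at ce11 chrIII:94022-94122, minus strand, wholly within coding sequence, and the capitals mark 2 copies of the E-box CACGTG, which reads the same on both strands.
pat-4: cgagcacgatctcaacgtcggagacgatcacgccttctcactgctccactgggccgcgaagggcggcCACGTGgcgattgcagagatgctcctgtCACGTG

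The remaining genes of this complex had no summit in their windows, but in different ways. At pat-6 (IV, 261886 to 264232, minus strand) the ranked lists held 1 peak in replicate 1 and 2 in replicate 2, the strongest with IDR 0.208 and 0.647. At unc-97 (X, 5593133 to 5594965, plus strand), neither ranked list held a peak inside the window. A summit of the conservative list nevertheless stood 1102 bp upstream of unc-97, 102 bp beyond the window, at 5592031. It had signal 199 (rank 1194, the strongest 16.9%), lay in no annotated gene, and the nearest 5' end was that of unc-97. Replicate 1 held it at signal 105 (rank 1326 of its ranked list, IDR 0.000448) and replicate 2 at signal 89.7 (rank 1456, IDR 0.00039), and both thresholded lists contain it. It is stronger than the main summits of 4 of the 6 members counted above, so the count of 6 rests on the width of the window.

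The summit beyond the unc-97 window is shown for that reason. It is the stretch within 50 bp of the summit, at ce11 chrX:5591981-5592081, plus strand, with 67.3% GC and none of the motifs searched.
unc-97: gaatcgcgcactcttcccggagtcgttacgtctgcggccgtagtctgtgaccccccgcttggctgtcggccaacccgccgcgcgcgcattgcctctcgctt

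Of the adaptor genes, unc-95 had 2 summits and unc-98 had 1. UNC-95 is a LIM-domain protein needed for ordered attachment sites, and its gene lies at I 14381360 to 14384737 (minus strand). The stronger unc-95 summit, of signal 228 at 14381741, was in coding exon 5 of 5, 2996 bp downstream of the 5' end and 381 bp before the 3' end. It had signal 99.2 in replicate 1 (strongest 4.60%) and 131 in replicate 2 (strongest 1.40%), and both thresholded lists contain it. This was the most GC-rich member summit, at 73.3%, with 99.5% of all summits lower. The weaker unc-95 summit (14384645, rank 4616 of 7085) lay 92 bp downstream of the 5' end in coding exon 1. Its ranked peaks had an IDR of 0.396 in replicate 1 and 0.0129 in replicate 2, neither thresholded list has it, and the authors' other pooled list lacks it.

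At unc-98 (X, 7570374 to 7573619, minus strand) the summit at 7573704 stood 85 bp upstream of the 5' end, with signal 117. The zinc finger protein UNC-98 is found at M-lines and in the muscle nucleus. The peak had signal 75.4 in replicate 1 (strongest 8.56%, IDR 0.00378), whose thresholded list holds it with another summit 296 bp upstream, and 42.0 in replicate 2 (strongest 17.7%, IDR 0.065), whose thresholded list has none. This call at unc-98 therefore rests on replicate 1 among the replicates' own lists. The position is shared, because the summit also lies in intron 1 of pcyt-1, which runs on the opposite strand, and 76 bp upstream of the very short annotated gene F08C6.18. The lists cannot assign the peak to any of these genes.

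The unc-98 summit is shown as the closest to an upstream 5' end among the members. It is the stretch within 50 bp of the summit, at ce11 chrX:7573654-7573754, minus strand, with 47.5% GC and none of the motifs searched.
unc-98: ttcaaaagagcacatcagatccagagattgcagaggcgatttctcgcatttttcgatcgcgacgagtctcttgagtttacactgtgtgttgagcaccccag

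The genes for the actin linkers were opposite in their counts, with 8 summits at tln-1 and 0 at deb-1. Talin joins the integrin tail to actin, and tln-1 is the longest member, at I 1721590 to 1740692 (plus strand). Of the 500 protein-coding genes nearest to it in window length, 59.0% had a summit and 4.2% had as many as 8 or more, against 0.200% of all protein-coding genes. This match is loose, since the windows of those 500 genes span 14.7 to 27.5 kb and that of tln-1 is 21.1 kb. The tln-1 summits reached only moderate signal. One, of signal 157 at 1720641, lay 949 bp upstream of the 5' end, and the others lay 634, 6875, 8058, 9693, 16605, 16807 and 17465 bp downstream of it with signals of 92.6, 160.4, 84.4, 139, 122, 82.9 and 154. Of these 7, 6 were in coding exons and 1 in an intron. The last 3 also lie in the 3' untranslated region of shorter annotated transcripts. The intronic summit, at 8058 bp, stood 179 bp upstream of the 5' end of the annotated shorter transcript Y71G12B.11c.1. The summits at 16605 and 16807 bp belong to 1 peak interval, 202 bp apart.

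Both replicates' thresholded lists overlapped 6 of the 8 tln-1 peaks, and the exceptions were those at 634 and 8058 bp, which neither list has. In the ranked lists the upstream peak was among the strongest 5.27% in replicate 1 and 10.1% in replicate 2. The peak at 6875 bp was among the strongest 8.87% and 4.81%. Neither replicate was higher throughout. Replicate 2's thresholded list had 9 tln-1 summits and replicate 1's had 5, and those of replicate 2 included peaks 14248 and 18599 bp downstream that are not in the conservative list.

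At deb-1 (IV, 7085215 to 7094266, minus strand), the gene for the vinculin of dense bodies, neither the conservative list nor the replicates' thresholded lists had a summit. The highest ranked peak stood beyond its 3' end, with an IDR of 0.0133 in replicate 1 and 0.256 in replicate 2. The authors' other pooled list has this peak (signal 76.5, rank 6441 of 7084), 269 bp past the 3' end of deb-1 and 264 bp upstream of the 5' end of rps-4, a ribosomal protein gene. For deb-1 itself the ranked lists held weaker peaks only.

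For contrast with the sequences above, the most GC-rich stretch of that length in the deb-1 promoter window is shown, centred 763 bp upstream of the 5' end at ce11 chrIV:7094979-7095079, minus strand. Its GC content of 50.5% is slightly above that of the unc-112 summit, no list has a peak there, and none of the motifs searched occurs.
deb-1: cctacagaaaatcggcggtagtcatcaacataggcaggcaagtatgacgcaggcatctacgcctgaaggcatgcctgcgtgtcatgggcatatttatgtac

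The 15 summits were also looked up in the replicates' own lists. Replicate 1's thresholded list overlapped 10 of them and replicate 2's 9, with 9 in both, 1 in replicate 1 only and 5 in neither. Most of the 9 in both were at tln-1. Among those in both, the pair at unc-112 and 1 pair at tln-1 each share 1 interval but count as 2 summits. Over the whole conservative list 48.3% of peaks were in both and 27.9% in neither. In the ranked lists all 15 had an overlapping peak in both replicates, but so had 99.6% of all conservative peaks. The replicate summits lay a median of 14 bp (replicate 1) and 38 bp (replicate 2) from the pooled summit. Counted by gene, 4 members had a summit in replicate 1's thresholded list (16.6% of all protein-coding genes), unc-112, unc-95, unc-98 and tln-1, and 3 had one in replicate 2's (17.5%), the same genes without unc-98. In the ranked lists the numbers were 8 in replicate 1 (44.6% of all genes) and 9 in replicate 2 (47.7%).

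**Figure D2:**
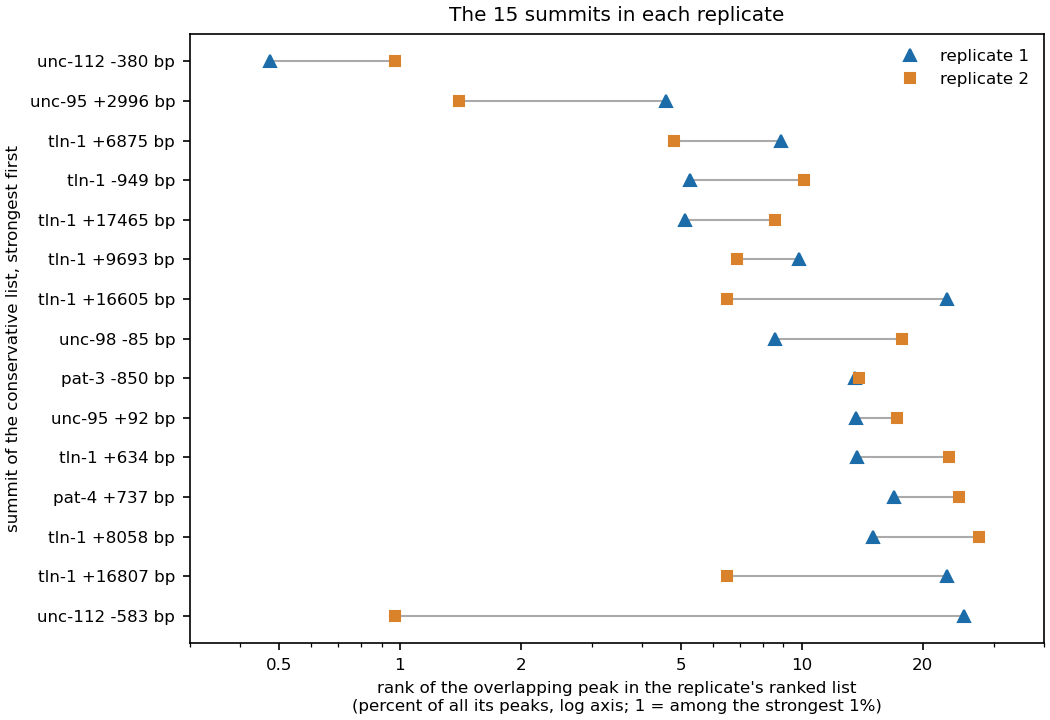
Rank of each of the 15 conservative summits in the replicates' ranked lists, as a percent of all peaks of the list on a log axis, with triangles for replicate 1 and squares for replicate 2 and a line joining them. The summit 380 bp upstream of unc-112 is in the strongest 1% of both, and the point of replicate 2 at the unc-112 summit of 583 bp is the same peak, since that replicate has a single summit there. The tln-1 summits at 16605 and 16807 bp share their points too, at 23.0% in replicate 1 and 6.52% in replicate 2. The peak drawn is the one with the nearest summit. Replicate 1 had a stronger peak in that interval, at 13.3% (IDR 0.00362).

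**Figure D3:**
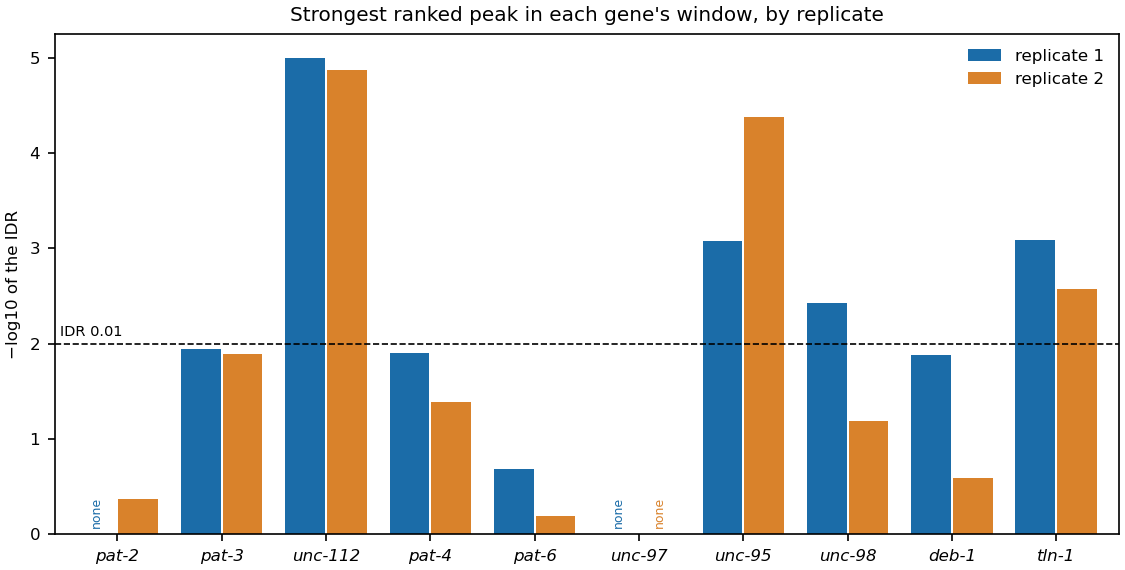
The −log10 of the IDR of the strongest ranked peak in each gene's window, with blue bars for replicate 1, orange bars for replicate 2 and a dashed line at an IDR of 0.01; genes with no ranked peak are marked none. Both bars of unc-112, unc-95 and tln-1 pass the line, at unc-98 the bar of replicate 1 does, and those of pat-3 end just under it. The bars of a gene can be different peaks in replicates 1 and 2. At tln-1 these lay 17479 and 6887 bp downstream of the 5' end, and at pat-6 3063 and 2696 bp downstream. At pat-4 they lay 343 bp upstream and 721 bp downstream.

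Placement differed between genes. By class, 6 of the 15 summits lay in promoter windows, 8 in coding exons outside them and 1 in an intron, and over the whole list the shares were 23.8% for promoter windows and 37.8% for coding exons. Of the 8 coding exon summits, 6 were in tln-1 and the others in pat-4 and unc-95. The promoter summits were those of unc-112, pat-3, unc-98, the first of tln-1 and the weaker of unc-95.

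GC content was higher at most of the 15 summits than beside them. The mean was 57.4% ± 7.33 (SD over 15 summits), against 55.1% ± 7.0 over all 7085 summits, 35.4% in the nuclear genome, and 41.7% and 42.2% at positions 300 bp upstream and downstream of the member summits. In 13 of the 15 the summit had more GC than both flanks. The exceptions were the weaker unc-112 summit, with 45.5% against 54.5% downstream, and the intronic tln-1 summit, with 52.5% against 53.5% downstream. The range was wide, from 45.5% at the weaker unc-112 summit to 73.3% at unc-95. The mean of the members did not stand out from that of all summits.

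**Figure D4:**
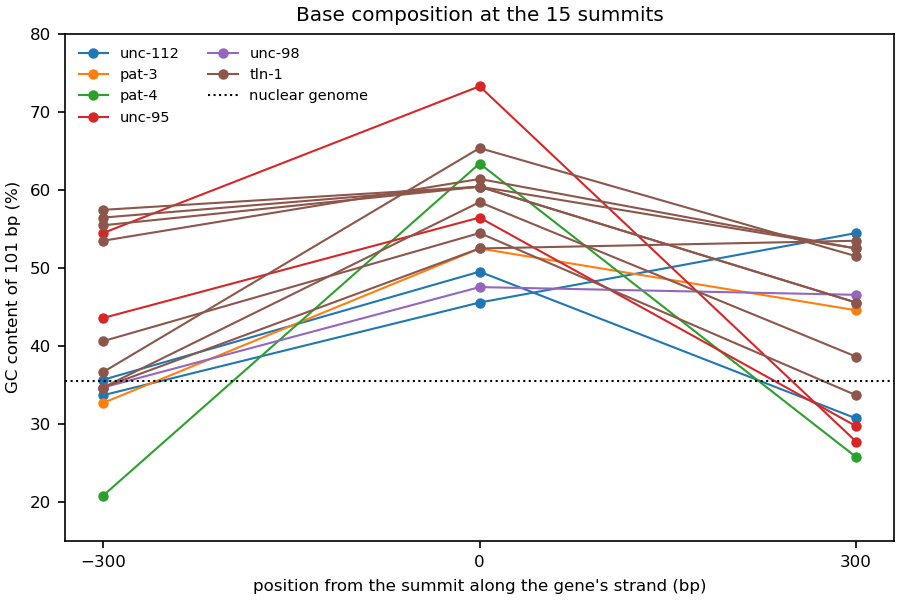
GC content (percent) within 50 bp of each of the 15 summits and of positions 300 bp to either side along the strand of the gene, with 1 line per summit coloured by gene and a dotted line at the 35.4% of the nuclear genome. Most lines peak at the summit, most sharply at pat-4, where the flanks fall to 20.8% and 25.7%.

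The highest GC content in the promoter window also differed between members. All protein-coding genes were ordered by this value and split into 10 bins by percentile rank. Many genes share a value and stay together, so the bins are of unequal size. The value was 65.3% at unc-95 and 63.4% at tln-1, both in the highest bin, of which 49.9% had a promoter summit. It was 56.4% at unc-112 and pat-3, in a bin where 8.90% had one, and 53.5% at unc-98, in a bin where 4.21% had one. The 4 members with no summit in their windows had the lowest values, at 50.5% in deb-1, 51.5% in pat-2 and pat-6 and 52.5% in unc-97, in bins where 0.624% to 1.87% had one. For unc-97 this depends on where the window ends. The summit 1102 bp upstream of it, outside both windows, had 67.3% GC, above the promoter value of every member. At pat-4, with no promoter summit in the conservative list, the value was 60.4%, in a bin where 21.3% had one. The highest GC content in the whole window gave another order. It was 61.4% at deb-1 and 57.4% at unc-97, which had no summit inside the window. It was 56.4% at unc-112 and pat-3 and 54.5% at unc-98, which had a summit there. The part of GC content in the calls was not tested.

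Each of the other motifs searched lay at 0 to 2 of the 15 summits, counts given beside the shares over all summits with no test. The E-box CAGCTG, a form bound by the muscle factor HLH-1, lay within 50 bp of 0 of the 15 summits (6.20% of all summits) and in 0 of the 10 promoter windows (20.9% of all). The E-box CACCTG (4.97% of all summits) and the CArG box, the site of serum response factors (0.212%), were also at 0 member summits. CACGTG was at 2, in pat-4 and tln-1 (3.81% of all summits), and in the promoter windows of 6 members, unc-112, pat-2, pat-3, unc-95, unc-98 and tln-1 (18.4% of all), but within 50 bp of 0 of the promoter summits. Within 100 bp it was also at the unc-95 promoter summit (6.63% of all summits at that distance). The homeodomain core TAATTA was at 1 tln-1 summit (0.692%) and CATTCC, a word of muscle TEAD-type sites, at another (5.24%). In the promoter windows CATTCC occurred at 8 of the 10 members (40.8% of all), TAATTA at 3 (47.3%), CACCTG at 2 (27.2%) and the CArG box at 1, unc-112 (6.60%). Motifs were searched on both strands, these 6 and the GA repeat made up the set of 7, and a match is only a match of letters. GAGAGAGA matches can overlap each other, as in the longer repeat at unc-112.

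A wider list of 24 genes of dense bodies, M-lines and integrin signalling, chosen from general knowledge, gave 12 with a summit in the same kind of window (22.9% of all protein-coding genes) and 4 with one in the promoter window (8.82% of all). Their windows were long, with a median of 12 kb, and held 0.0884 summits per kb, close to the 0.0766 of all protein-coding genes. The strongest were at zyx-1, which encodes zyxin (signal 289, 7 summits in the window), unc-96, whose product binds UNC-98 (284, 1 summit, 590 bp upstream), dim-1, an immunoglobulin-repeat protein gene (242, 1 summit), and unc-52, the perlecan of the basement membrane to which the integrin attaches (202, 8 summits). The 12 without a summit were ina-1, the other integrin alpha subunit gene, atn-1 (alpha-actinin), alp-1, pxl-1 (paxillin), lim-8, uig-1, git-1, pak-1, tns-1 (tensin), kin-32 (focal adhesion kinase), pfn-3 and rsu-1.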

How the data were processed

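Peaks of ZFH-2::GFP ChIP-seq from 2 biological replicates were deposited as lists in build ce11, per the labels and the deposited README texts: a thresholded and a ranked list from each replicate's own alignments, and pooled lists from both. The aligner and the caller of the peaks were not given in the sources used here. The authors' signal has no stated scale and ranks peaks within a list only. The authors' score (at most 1000) follows the logarithm of the IDR, and all thresholded peaks score at least 830. In the authors' ranked lists −log10 of the global IDR is a column of its own. The pooled ranked lists were not used. Depth is unknown, since the lists hold no read counts.

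Mitochondrial peaks were left out. The summit is the peak start plus the listed offset. Gene positions came from Ensembl release 115 (WBcel235, the same assembly as ce11), and bases from the RefSeq copy of that genome; all peaks ended within the chromosomes. Windows ran 1000 bp beyond the gene, and replicate peaks matched on an overlap of at least 1 bp, the nearest summit being taken. GC content and motifs were read within 50 bp of a summit. With 1 group no test was made. Counting was tested on simulated windows. The members and lists were chosen with earlier results of these data known. The rule printed summit sequences of members in the stronger 50% of the list, which gave unc-112, and its stretch was widened to 300 bases to hold both summits. Those of pat-3, pat-4, unc-98, unc-97 and deb-1 were chosen after their values were seen. Sequences from chromosome I and from untranslated regions were not printed. Tools were NumPy 2.4.6, pandas 2.3.3 and matplotlib 3.10.9 under Python 3.11.15.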

Additional observations from a re-analysis of the deposited data

How the results depend on the processing

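In this section, without replicate 1 means that the thresholded list of replicate 2 was read alone. Without replicate 2 means that of replicate 1, and no pooled list was made again. The number of members with a summit in their window was 6. It was 7 in the authors' other pooled list (deb-1 added; 23.2% of all genes), and 7 with 2000 bp on each side (28.6%) or when an overlapping peak sufficed (24.1%), unc-97 being added in both. It was 3 for the gene body alone (pat-4, unc-95 and tln-1, against 14.8% of all genes). With the stronger 50% of peaks it was also 3 (unc-112, unc-95 and tln-1, against 14.8%). It was 3 without replicate 1 (17.5% of all genes) and 4 without replicate 2 (16.6%). The number with a promoter summit was 5, and it was 4 with the other pooled list (8.9% of all genes; unc-95 lost), 5 with the 5' ends of all transcripts (10.6%) and 6 from 2000 bp upstream to 500 bp downstream (15.3%; unc-97 added). It was 2 with the stronger 50% of peaks (unc-112 and tln-1, against 5.49%). From 500 bp upstream to 100 bp downstream it was 3 (unc-112, unc-95 and unc-98, against 4.96%). It was 2 without replicate 1 (6.23%) and 3 without replicate 2 (6.47%). Without replicate 1 the promoter calls at unc-98, pat-3 and unc-95 were absent, and without replicate 2 those at pat-3 and unc-95. The number of summits, 15, was 11 without replicate 1, 10 without replicate 2 and 13 with 1 summit per merged region. Mean GC at the summits was 58.7% within 25 bp and 53.8% within 100 bp. Within 25 bp TAATTA (0.268% of all summits) and CATTCC (2.63%) were at 0 member summits. Within 100 bp CAGCTG was at 1 (10.6% of all summits), CACCTG at 2 (8.72%) and CATTCC at 3 (10.3%). At that distance CACGTG was at 3 with the unc-95 promoter summit added (6.63%) and GAGAGAGA at 3 with pat-3 added (6.90%). The shares over all summits also rose with the distance searched. The cause of the changes between the lists was not tested. Of 13 percentile ranks of strongest summits under the other lists, 9 moved by less than a limit set for each gene. The others were unc-112 without replicate 1 (2.77% to 6.62%) and, without replicate 2, unc-95 (11.8% to 35.4%), tln-1 (28.3% to 39.3%) and unc-98 (51.3% to 64.4%). For unc-112, unc-95 and tln-1 the limit was the SD of the 2 replicates' percentiles, which are among the values judged. For pat-3, pat-4 and unc-98 it was the reach of a binomial interval, not a spread between replicates. The count of 9 is therefore a description only. The replicates' thresholded lists are shorter than the pooled list, so these percents have unlike totals. Depth limits cannot be given, since no reads were counted. No paired analysis was possible because there is 1 group.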
